A study of Mus musculus with 2 samples.

Results

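T cell receptor V genes are the short, repeated gene segments that encode most of the variable end of each T cell receptor chain. The 144 genes of the type TR_V_gene in GENCODE M21 were taken, out of 55413 genes on the assembled mouse chromosomes. Of these, 115 lie in the Tra/Trd locus on chromosome 14, 22 in the Trb locus on chromosome 6 and 7 in the Trg locus on chromosome 13. CTCF peaks were counted as belonging to a locus when their summit lay within 5 kb of a V gene, between V genes, in a block of D, J and C genes, or within 200 kb beyond the outermost J or C gene. This gave 83 of the 57197 peaks on assembled chromosomes, with 43 in Tra/Trd, 29 in Trb and 11 in Trg.

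CTCF was mapped by ChIP-seq in whole livers of B6NCrl mice at postnatal day 0, in 1 group of 2 replicates without treatment. Livers were pulverized and pooled from several dissections, per the labels. The biosample and the donor label are shared by both replicates, and their differences may therefore be technical. Per the labels no sex was recorded, and a control experiment named in the labels was not analysed here. Without expression data the cell types of these livers could not be checked against markers. In such bulk tissue, which cells carried a peak, and fewer bound cells against weaker binding in each cell, cannot be told apart.

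In developing T cells, RAG recombinase cuts at recombination signals beside V, D and J segments. Repair then joins a V and a J segment into a receptor gene, with D segments between them in Trb and Trd only. The Trd genes lie inside the Tra locus and share some of its V genes. CTCF is a DNA-binding protein whose motif has a direction, and cohesin moving along DNA is held most often where the motif faces it. In thymocytes, CTCF and cohesin are known to fold these loci so that distant V genes meet the J segments. Liver cells other than lymphocytes do not rearrange these genes.

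The sequences below carry the main observation. They are the 30 bases around the best match to a 14-base CTCF core, read 5′ to 3′ on the strand of the core from GRCm38, the assembly that mm10 names. Capitals mark the core. The first 4 lie just before V genes of repeated Tra families, and the next lies before the single-copy gene Trav17. The others are perfect cores under strong peaks, in the Trd part, beside Trbv1 and Trbv14, and in Dad1 beyond the J and C genes.
Trav12-1, chr14:53538082-53538095, plus strand: aagggaaaCCAGCAGAGGGCGCtgcccctt
Trav3-3, chr14:53665839-53665852, plus strand: gaagctgtCCACTAGGGGGCAGagcatcac
Trav6n-6, chr14:53132569-53132582, plus strand: gctcctgtCCACCAGGGGGCGCagatgcct
Trav8n-2, chr14:53345740-53345753, plus strand: tatgctcaCCACTAGATGGCAGtgcctctc
Trav17, chr14:53806402-53806415, plus strand: acctttgaCCACAAGGGGGCACtgttgcat
upstream of Trdv4, chr14:54059964-54059977, plus strand: tcaggggaCCACTAGATGGCAGcagatggt
downstream of Trbv1, chr6:40893723-40893736, plus strand: gggtctttCCACCAGGGGGCACcatttgcc
downstream of Trbv14, chr6:41137173-41137186, plus strand: gtcactggCCACTAGAGGGCACtgtggatt
Dad1, chr14:54239239-54239252, plus strand: aggtgcatCCACTAGATGGCGGcagagtgc

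Trb V genes were more often near a CTCF peak than Tra/Trd V genes. A summit lay within 5 kb of 16 of 22 Trb V genes (72.7%, 95% exact interval 49.8 to 89.3), of 23 of 115 Tra/Trd V genes (20%, 13.1 to 28.5) and of 2 of 7 Trg V genes (28.6%, 3.67 to 71.0). In the conservative list the Tra/Trd count was 30. Over all loci of the optimal list it was 41 of 144 (28.5%, 21.3 to 36.6). The same count gave 69.5% of protein-coding genes, 44.9% of all genes and 21.8% of genes of at most 1 kb. V genes are short, with a median length of 535 bp, so genes of at most 1 kb are the nearest to them in length. At 5 kb the Tra/Trd share was thus close to that of short genes, and the Trb share was above it. Within 0.5 kb the shares were 10.4% in Tra/Trd and 4.56% of short genes. Of the V genes of the immunoglobulin loci, the B cell counterparts, 22.9% had a summit within 5 kb. These loci differed too, with 39 of 113 on chromosome 12 (34.5%), 8 of 102 on chromosome 6 (7.84%) and 3 of 3 on chromosome 16. T cell receptor V pseudogenes, which are not among the 144, had a summit within 5 kb in 13 of 34 cases (38.2%, 22.2 to 56.4). Intervals cover counting error only. Neighbouring V genes share peaks and are not independent, and with no contrast in the design no test was made.

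**Figure D1:**
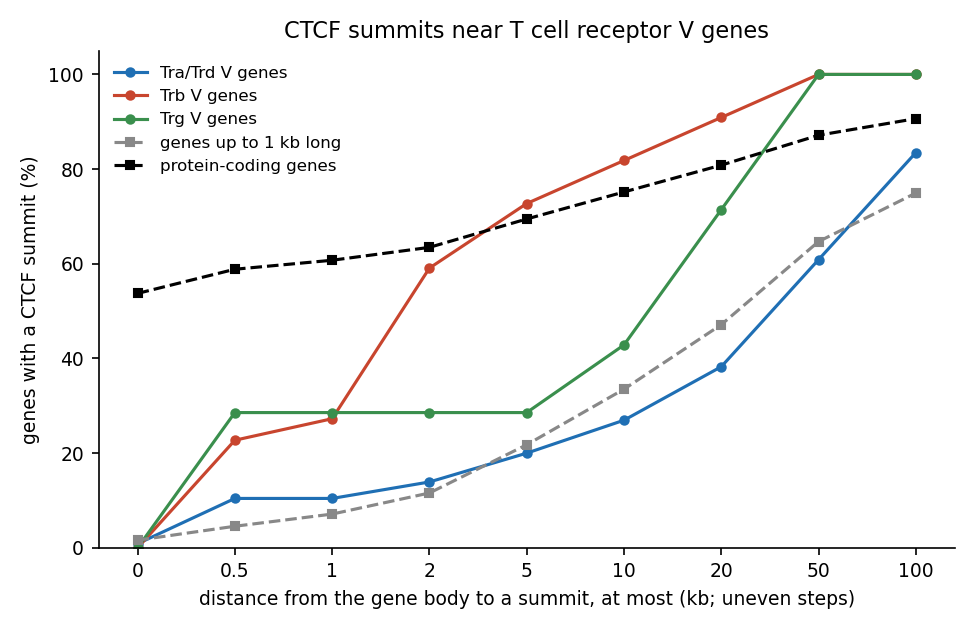
Share of genes with a CTCF summit within a given distance of the gene body, for the V genes of each locus (solid lines), genes of at most 1 kb and protein-coding genes (dashed lines). At 5 kb the Trb line reaches 72.7%, whereas the Tra/Trd line, at 20%, is near that of short genes at 21.8%. The Tra/Trd line is above that of short genes at 0.5 kb (10.4% and 4.56%) and below it at 20 kb (38.3% and 47.1%).

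The median distance from a V gene to the nearest summit was 31.8 kb in Tra/Trd, 1.71 kb in Trb and 12.6 kb in Trg. Across the stretch from the outermost V gene to the other, peaks lay at 15.7 per Mb in Tra/Trd, 29.97 per Mb in Trb and 18.5 per Mb in Trg, beside 21.6 per Mb over the genome. Much of the Tra/Trd sequence is repeated, and per Mb of bases that start a single-copy 32-mer, a string of 32 bases found at 1 place in the genome, the densities were 36.4, 41.9 and 32.3 in the same order of loci, beside 26.7 over the genome. The gap between Tra/Trd and Trb was smaller on that scale, and Tra/Trd stood above Trg. The conservative list also put Tra/Trd above Trg, at 18.0 and 12.3 per Mb. The Trg V span held only 3 peaks in the optimal list, so its place in this order cannot be read closely. Peaks gathered close to the genes. Within 5 kb of V genes there were 22.5 peaks per Mb in Tra/Trd, 78.6 in Trb and 40.8 in Trg, or 63.3, 88.2 and 49.98 per Mb of single-copy bases. Elsewhere between V genes there were 7.36, 12.4 and 15.99 per Mb in the same order of loci, or 13.6, 19.1 and 35.6 per Mb of single-copy bases. In Trg these densities rest on 2 peaks near V genes and 1 between them.

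**Figure D2:**
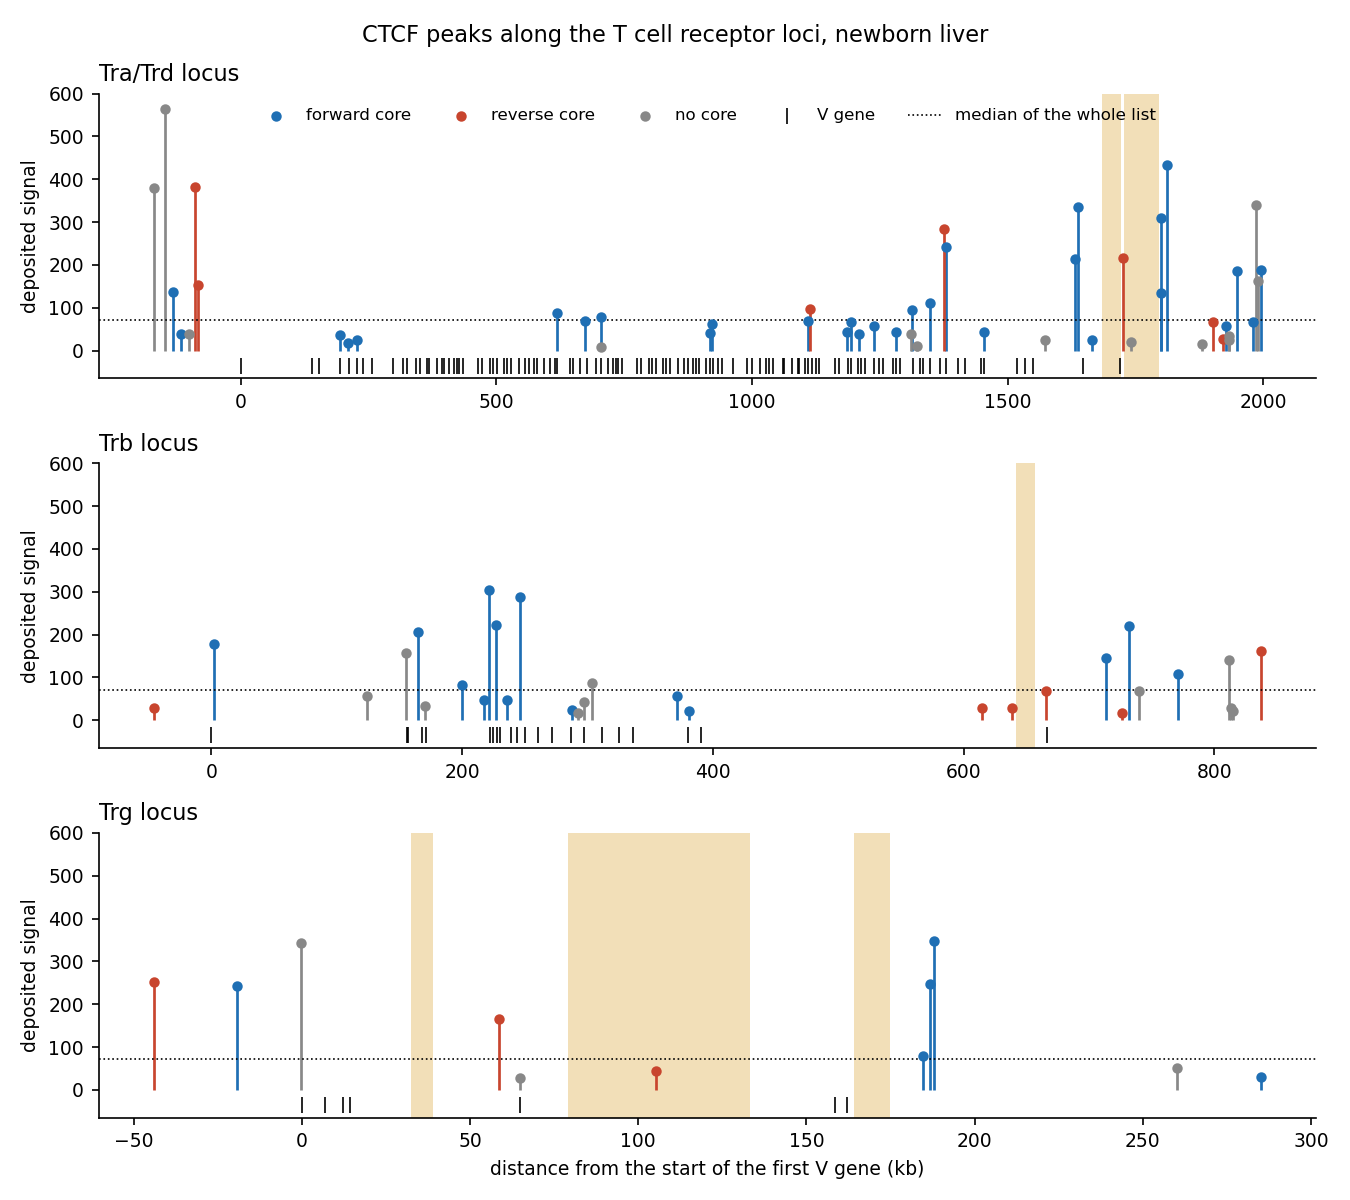
CTCF peaks along the Tra/Trd, Trb and Trg loci. Each stem is a peak at its distance from the start of the first V gene (kb), with its deposited signal as height and the strand of its 14-base core as colour, black ticks are V genes, shaded bands are D, J and C blocks, and the dotted line is the median signal of the whole list, 71.2. Among the peaks near or between V genes, the strongest of Tra/Trd has a signal of 335.6 and lies upstream of Trdv4, and Trb has no peak in its D, J and C block.

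CTCF peaks near Tra/Trd V genes lay mostly upstream of the gene and over a core on the strand of the gene. Of the 39 peaks within 5 kb of a V gene in any locus, 30 were upstream of it, 1 was inside and 8 were downstream. In Tra/Trd, 20 of the 23 were upstream, 1 was inside and 2 were downstream. Their median distance to the V gene was 227 bp, and the farthest lay 4823 bp away. A core of at most 2 mismatches lay within 50 bp of the summit in 21 of 23 such peaks in Tra/Trd, 10 of 14 in Trb and 0 of 2 in Trg. Together this was 31 of 39 (79.5%, 63.5 to 90.7), beside 71.2% of all peaks, so the pooled share is near the background. The share was 91.3% (72.0 to 98.9) in Tra/Trd and 71.4% (41.9 to 91.6) in Trb. In Tra/Trd, 19 of the 21 cores were on the strand of the V gene. Over all loci, 18 peaks had their summit at most 1 kb upstream of a V gene, at a median of 130.5 bp. All 14 of these that held a core had it on the strand that points from the V gene toward the J and C genes.

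Over the 51 peaks near or between V genes, 39 held a core and 33 of these pointed toward the J and C genes (84.6%, 69.5 to 94.1). By locus this was 21 of 24 in Tra/Trd, 12 of 14 in Trb and 0 of 1 in Trg. Beyond the J and C genes, 2 of 9 cores in Tra/Trd, 2 of 5 in Trb and 1 of 6 in Trg pointed back toward the locus. Neighbouring cores, those of the flank included, mostly shared a strand in Tra/Trd and Trb. Of the 32 neighbouring pairs in Tra/Trd, 24 were tandem, 4 convergent and 4 divergent, and of the 18 pairs in Trb, 13 were tandem, 3 convergent and 2 divergent. Trg had 7 pairs, with 4 tandem, 1 convergent and 2 divergent. The share of tandem pairs over all peaks was not computed, so these counts have no background.

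The sequence before V genes was then searched for the core whether or not a peak was there. This search was chosen after the positions of the peaks had been seen. A core of at most 1 mismatch lay in the 500 bp before 53 of 115 Tra/Trd V genes (46.1%), and all 53 were on the strand of the V gene. It lay before 1 of 22 Trb V genes, the gene Trbv12-1, and 0 of 7 Trg V genes. The same search found it before 3.25% of protein-coding genes, 1.54% of genes of at most 1 kb and 0 of 218 immunoglobulin V genes. Of the 53 cores, 17 had no mismatch, and the core ended 32 to 287 bp before the gene with a median of 118 bp. With at most 2 mismatches the counts were 66 of 115, 6 of 22 and 0 of 7 V genes, beside 20.1% of protein-coding genes, 11.2% of short genes and 3 of 218 immunoglobulin V genes. A match is a sequence description and not a bound site.

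**Figure D3:**
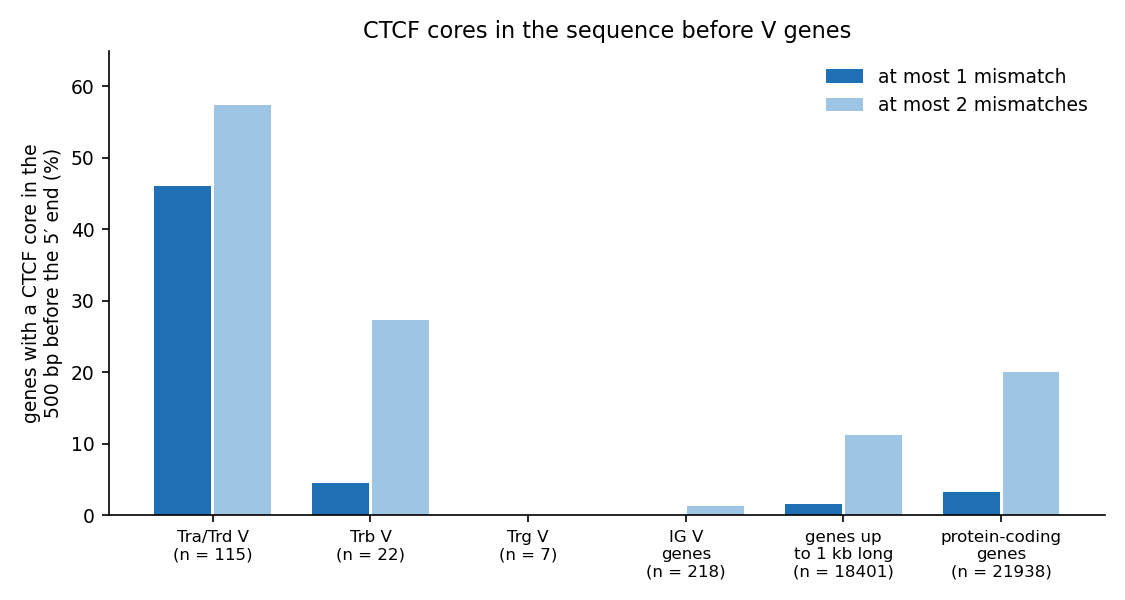
Share of genes with a 14-base CTCF core in the 500 bp before the 5′ end, at most 1 mismatch (dark bars) or 2 (light bars), for the V genes of each locus and, to their right, immunoglobulin V genes, genes of at most 1 kb and protein-coding genes. Tra/Trd V genes reach 46.1% at most 1 mismatch, beside 3.25% of protein-coding genes.

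The cores followed the V gene families, whose members arose by duplication. All 9 Trav12 genes had one at most 1 mismatch, as did all 5 Trav3, all 4 Trav8 and all 3 Trav10 genes, 12 of 15 Trav6 genes, 11 of 13 Trav7 genes and 8 of 10 Trav9 genes. None was found before the 11 Trav13, 9 Trav14, 7 Trav4 and 6 Trav15 genes. Families were named after these counts had been seen.

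A peak of the optimal list held 10 of the 53 cores, and copies of the same sequence differed. How often such cores before other genes lie in a peak was not counted, so the 10 cannot be called few. The 53 cores made 29 distinct sequences of 30 bases, 15 of them present before more than 1 V gene. In 5 of these 15 sequences some copies had a peak and others had none, and in no case did every copy have one. The 30 bases printed for Trav12-1 stand unchanged before Trav12d-1, Trav12d-3, Trav12n-1 and Trav12n-3. Trav12-1 had a peak with a signal of 68.5 and the other 4 had none. Likewise, Trav3-3 had a peak (signal 58.2) where the same bases before Trav3d-3 and Trav3n-3 had none, and Trav6n-6 had one (78.8) where Trav6d-6 and Trav6-6 had none. Trav8n-2 had a peak (41.9), and its copy before Trav8d-2 had none.

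These copies differ in how far their surroundings occur once in the genome. Reads that align to several places may be lost in processing. The share of 32-mers found at a single place in the genome was therefore computed as a description, since the read length and the handling of such reads are not given. Within 100 bp of the core this share had a median of 64.1% at the 10 cores with a peak and of 2.94% at the 43 without. At 21 of the 53 cores no 32-mer was unique, and 0 of these had a peak. Where at least 50% of the 32-mers were unique, 8 of 14 cores had a peak, against 2 of 39 below that. Trav12-1 stood at 60%, and Trav12d-1, Trav12d-3, Trav12n-1 and Trav12n-3 at 0%. For Trav8n-2 and Trav8d-2 the shares were close, 44.7% and 44.1%. A further 8 of the 43 cores had a call in the list made from the pooled alignments of both replicates, with signals of 7.03 to 23.6. These calls did not enter the optimal list. The cores were not set against the conservative list, which put a summit within 5 kb of 30 Tra/Trd V genes, beside 23 in the optimal list. How far the loss of reads sets the absence of peaks was not tested.

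**Figure D4:**
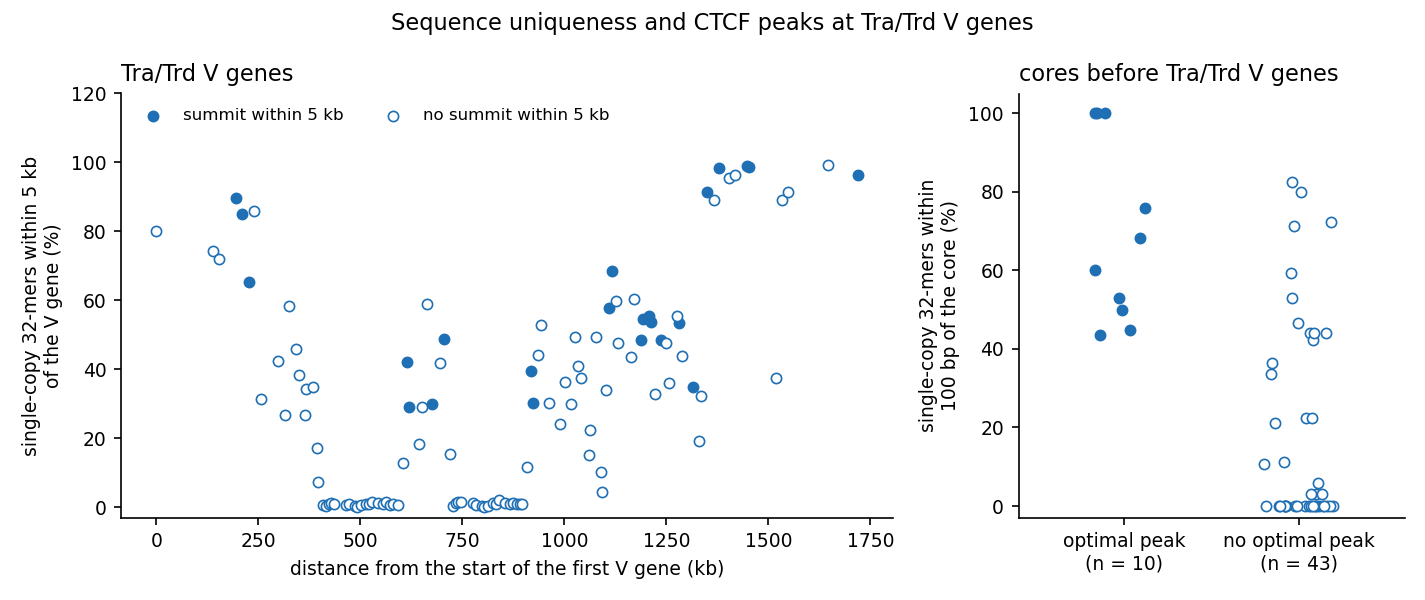
Left, the share of single-copy 32-mers within 5 kb of each Tra/Trd V gene against its distance from the first V gene (kb), filled where a CTCF summit lay within 5 kb and open where none did. Right, the same share within 100 bp of each core of at most 1 mismatch before a Tra/Trd V gene, for the 10 cores with an optimal peak and the 43 without, where 21 points without a peak lie at 0%.

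The same held for the Tra/Trd V genes as a whole. The median share of unique 32-mers within 5 kb was 54.6% for the 23 Tra/Trd V genes with a summit and 18.8% for the 92 without, and the lowest value with a summit was 29.2%. None of the 47 genes below 20% had a summit. From there up, 9 of 38 genes between 20% and 50%, 7 of 15 between 50% and 80% and 7 of 15 at or above 80% had one. In Trb the medians with and without a summit were close, 93.6% and 89.2%. In Trg the order was the reverse, 73.5% over 2 genes with a summit and 95.2% over 5 without. The medians over all V genes of a locus were 31.4% in Tra/Trd, 92.3% in Trb and 89.0% in Trg. Among genes with at least 50% unique 32-mers, a split added after the data were seen, 14 of 30 Tra/Trd V genes had a summit (46.7%), beside 16 of 22 in Trb, where every V gene passed that limit. Genes whose names carry d or n, which mark duplicated copies, had a summit in 2 of 34 and 4 of 28 cases, with median shares of 1.61% and 1.40%, and the 53 genes without such a letter had one in 17 cases at 53.5%. The longest stretch without a summit of the optimal list ran 391.0 kb (chr14:52654568-53045525) across 34 V genes, and 16.5% of its 32-mers were unique.

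Among Tra/Trd V genes the strongest peaks lay at Trav17, where all 32-mers within 100 bp of either summit were unique. A peak 2214 bp upstream, over a reverse core, had a signal of 283.1, with 160.6 in replicate 1 and 122.6 in replicate 2, each taken from the replicate's own list. The other, over the core printed above, stood 227 bp upstream with 242.0 (134.2 in replicate 1 and 107.4 in replicate 2). These cores face apart. Trav3-4 had a peak 60 bp upstream with a signal of 110.4, and Trav12-1 a second peak 3105 bp downstream with 97.0 and a reverse core. By contrast, Trav6-1, Trav7-1 and Trav5-1 near the far end of the V genes had 17.4, 25.1 and 35.8. Those 3 genes were chosen after their values were seen, as was the Trav16 family. All 3 Trav16 genes had a peak 1660 to 1762 bp upstream over the same 14-base core, with signals of 94.8 for Trav16, 62.0 for Trav16n and 87.8 for Trav16d-dv11. At Trav1, the outermost V gene, no summit lay within 5 kb, and the nearest was 84.1 kb further out.

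The Trd part of the locus held 3 strong peaks, a pair between V genes and another near Trdv5. Upstream of Trdv4, which lies close to the Trd D and J segments, a peak at 10.2 kb had a signal of 335.6 (184.4 in replicate 1 and 151.0 in replicate 2). A second at 14.9 kb, over the perfect core printed above, had 213.0 (114.3 and 98.1). Both cores pointed toward the J and C genes. In mouse thymocytes a pair of CTCF elements is known between Trdv2-2 and Trdv4, and whether these peaks are those elements was not tested. Neither Trdv4 nor Trdv2-2 had a summit within 5 kb. Between Trdv5, an inverted V gene, and Traj61, the outermost J segment of the alpha chain, a peak with a signal of 216.2 (105.7 and 108.3) lay 3738 bp from Trdv5, 1973 bp from Traj61 and 4.16 kb from Trdc, the delta constant gene. Its core was on the reverse strand, opposite to the pair above. Among the J segments themselves there was a single weak peak, 97 bp from Traj49, with 18.8.

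Beyond Trac, the alpha constant gene, 14 peaks lay within 200 kb, at 69.4 per Mb, with a median signal of 100.7. The nearest interval, chr14:54227947-54228421, held 2 summits with signals of 309.1 and 133.8, the stronger 3.92 kb past Trac. The strongest of the 83 peaks was in an intron of Dad1, which encodes a subunit of the enzyme that attaches sugar chains to proteins. It had 432.6 (218.0 in replicate 1 and 215.4 in replicate 2) over a perfect forward core. Further out lay peaks at Slc7a7, an amino acid transporter gene, with 340.7, 185.4 and 162.5, and 3311 bp from Mrpl52, a gene of the mitochondrial ribosome, with 187.2. Abhd4, next to Dad1, had no summit within 5 kb.

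In Trb the peaks lay both before and after V genes. The strongest was 492 bp upstream of Trbv12-1 with a signal of 304.1 (152.8 in replicate 1 and 153.6 in replicate 2), and its neighbour Trbv12-2 had one 482 bp upstream with 222.2 (115.0 and 106.3). Trbv14 had its peak 1563 bp downstream with 288.3 (146.1 and 141.3), and Trbv1, which stands apart at the far end, had one 1852 bp downstream with 178.9 (77.7 and 101.0), both over the perfect cores printed above. A peak 3630 bp upstream of Trbv4 had 204.9, and one 594 bp upstream of Trbv2, a gene outside the naming rule, had 156.0 with no core. All 10 cores within 5 kb of Trb V genes pointed toward the J and C genes. That includes Trbv31, which lies inverted beyond the C genes and whose peak (67.3) held a reverse core.

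The 6 Trb V genes without a summit within 5 kb were Trbv16, Trbv17, Trbv21, Trbv23, Trbv26 and Trbv30, with nearest summits at 7907 to 32862 bp, and were named after their values had been seen. Their median unique share was 89.2%, against 93.6% for the 16 with a summit. Trbv19 was singled out after its values were seen because its summit, 34 bp past the gene, fell inside the stretch taken as its recombination signal. That stretch was a match to CACAGTG, a fixed spacer of 23 bases and a place for ACAAAAACC, which had 4 mismatches. The core of that weak peak (23.2) lay 59 bp past the gene and did not overlap the signal.

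No peak lay in the block of D, J and C genes of Trb, and neither Trbc1 nor Trbc2 had a summit within 5 kb. The longest stretch without a summit, 233.2 kb, ran from Trbv29 into the group of trypsinogen genes inside this locus and ended before Prss2, which belongs to that group. It holds 1 V gene, and 58.3% of its 32-mers were unique. At and beyond its end 2 weak peaks of 28.9 each lay at Gm38018 and 3005 bp from Trbd1, both on the reverse strand and thus pointing away from the J and C genes. Prss2 and Moxd2, on the outer side of Trbv1, had none within 5 kb. The flank beyond the C genes held 9 peaks at 48.7 per Mb. Its strongest were in Trpv6, a calcium channel gene, with 221.1, 24080 bp from Kel, a blood group gene, with 162.0, 985 bp from Ephb6, an ephrin receptor gene, with 145.1, in Kel with 140.2 and in Trpv5, another calcium channel gene, with 107.6.

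Trg had few peaks, and they were strong beyond its ends. The peak 224 bp upstream of Tcrg-V7, the outermost V gene, had a signal of 344.1 (165.2 in replicate 1 and 179.0 in replicate 2), and its best core had 3 mismatches, past the limit used. Tcrg-V3 had a weak peak 57 bp upstream with 27.6 and a stronger one 6280 bp upstream with 164.8 over a reverse core. The same 14 bases lay under the only peak of its D, J and C blocks, with 43.6, between Tcrg-C3 and Tcrg-C2. None of Tcrg-C1, Tcrg-C2, Tcrg-C3 and Tcrg-C4 had a summit within 5 kb. Of the 7 flank peaks, 3 were in Stard3nl, which encodes a membrane protein of late endosomes, with 348.9, 246.8 and 80.1, all over forward cores. On the other side, a peak in an intron of Amph, the amphiphysin gene, had 252.5, and one 19.3 kb before Tcrg-V7 had 243.0. The remaining pair, at 50.3 and 29.6, lay 24573 bp from and inside 9330199G10Rik.

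By signal, the peaks of these loci were close to the whole list. Their median was 67.3, with a range of 7.25 to 432.6, beside 71.2 over all peaks, and 37 of the 83 lay above that value. Within 5 kb of V genes the medians were 62.0 in Tra/Trd, 57.1 in Trb and 185.8 over the 2 peaks of Trg. Beyond the J and C genes they were 100.7, 107.6 and 243.0 in the same order. On the outer side of the Tra/Trd V genes, which was not counted with the locus, 7 peaks lay within 200 kb, the strongest of 563.6 at Rab2b. The share of peaks with a core, 60 of 83 (72.3%, 61.4 to 81.6), was near the 71.2% of all peaks.

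**Figure D5:**
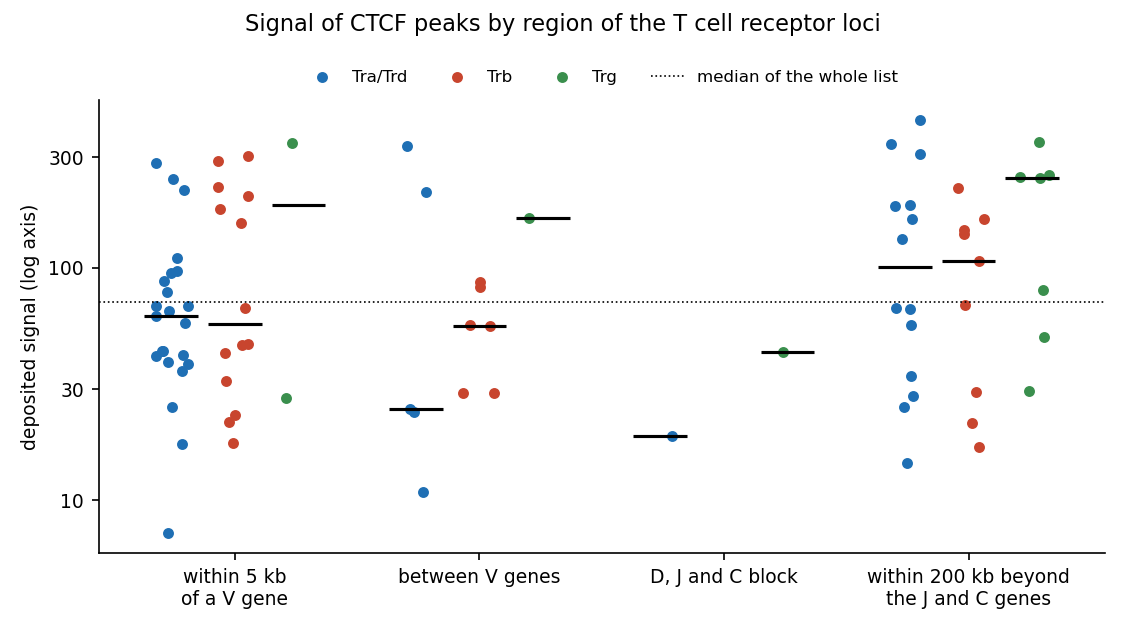
Deposited signal (log axis) of each of the 83 CTCF peaks by region, coloured by locus, with black bars at the medians and a dotted line at 71.2, the median of the whole list. Medians within 5 kb of a V gene are 62.0 in Tra/Trd and 57.1 in Trb, and those beyond the J and C genes lie higher, at 100.7 and 107.6.

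The optimal list keeps calls that are repeated, so finding its peaks in each replicate was largely set in advance and is no separate check. Of the 83 summits, 82 had a call within 100 bp in replicate 1 and 83 in replicate 2, in lists that run to 300000 calls each. Across the 82 found in both, Spearman's rho of the signals was 0.95, and the ratio of replicate 1 to replicate 2 had a median of 1.02 and a range of 0.36 to 2.33. Peaks share libraries, so this describes the lists only. The conservative list held 70 of the 83, beside 87.8% of all optimal peaks. All 23 peaks within 5 kb of a Tra/Trd V gene were among them, as were 12 of the 14 in Trb and 1 of the 2 in Trg.

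Genes that T cells use to build and read their receptor were set beside the loci. Of 22 such genes, 16 had a summit within 5 kb (72.7%, 49.8 to 89.3), close to the 69.5% of protein-coding genes. Rag1, which encodes the cutting subunit of the recombinase, had one 3.55 kb upstream with a signal of 169.5. The strongest summit within 5 kb of each gene varied widely, and these genes are long, with a median of 23.8 kb. Among receptor and signalling genes it ran from 13.7 at Ptcra to 365.9 at Cd247, with Zap70 at 317.9 and Cd3g at 308.3. Among transcription factor genes it ran from 28.3 at Ets1 to 323.8 at Tcf7. Between these, Tcf3 had 85.4, Tcf12 88.8, Bcl11b 315.0 and Runx3 320.7. A summit lay within 1 kb of the 5′ end in 3 of the 22 genes. That share was not computed for other genes, so it cannot be called low or high. Rag2, Cd3e, Cd3d, Lat, Cd8a and Cd8b1 had no summit within 5 kb.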

How the data were processed

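CTCF ChIP-seq of newborn mouse liver (1 group, 2 replicates) was deposited as 5 peak lists on mm10. The authors called peaks per replicate and on pooled alignments, and kept the repeated ones by the irreproducible discovery rate in a conservative and an optimal list, per the labels. Neither the aligner nor the peak caller is given in the sources used here. The deposited signal of each peak has no stated scale and was used only to describe and rank peaks within a list. No read counts were used, so depth is unknown.

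The optimal list was set against GENCODE M21 and GRCm38 with Python 3.11.15, numpy 2.4.6, pandas 2.3.3 and scipy 1.17.1. The summit is the start plus the deposited offset. Each peak was put into the region named first in the order within 5 kb of a V gene, D, J and C block, between V genes, flank. The 14-base core was sought within 50 bp of the summit on both strands with at most 2 mismatches. Uniqueness counted 32-mers on both strands. Programs were tested on simulated data. Genes are named by a rule: V genes at the 5 strongest near peaks of each locus, the 6 strongest flank peaks, and fixed landmark and T cell genes. Exceptions are marked. Members and lists were chosen with earlier results of these data known. Alternatives were other lists, distances, mismatches and denominators.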

Additional observations from a re-analysis of the deposited data

How the results depend on the processing

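Of 78 recomputed values, 52 stayed within the limits set (1.5 times for counts and densities, the exact interval for shares, 1 SD between the single-replicate values for percentiles). The order of loci changed in places. Tra/Trd lay below Trg in peaks per Mb of V span in the optimal list (15.7 and 18.5), but above it in the conservative list (18.0 and 12.3), without replicate 2 (16.8 and 12.3) and per Mb of single-copy bases. The other 26 values were these. Among the stronger 50% of peaks, V genes with a summit numbered 20 (9 Tra/Trd, 10 Trb and 1 Trg), peaks per Mb of V span were 5.23, 12.0 and 6.16, and 83.8% of peaks held a core. Within 1 kb, 20 V genes had a summit, 12 in Tra/Trd and 6 in Trb. In the conservative list Trg had 1 such gene and 12.3 peaks per Mb, and the median percentile of signal near and between V genes was 33.7 in Tra/Trd and 82.2 in Trg, where the optimal list gave 45.4 and 71.9, so that Tra/Trd lay below Trb (43.8) and not above it (43.7 in the optimal list), as it also did without replicate 2. Without either replicate, Trg had 1 to 2 such genes and 12.3 to 18.5 peaks per Mb, and the percentiles were 40.3 to 43.9 in Tra/Trd, 43.6 to 44.7 in Trb and 73.4 to 81.4 in Trg. Per Mb of single-copy bases the V span held 36.4 peaks in Tra/Trd, 41.9 in Trb and 32.3 in Trg. With at most 1 or 3 mismatches, 44.6% and 90.4% of peaks held a core. Among V genes with at least 50% single-copy 32-mers, an alternative added after the data were seen, 46.7% of Tra/Trd and 54.2% of all V genes had a summit, and Tra/Trd lay above Trg (28.6%) and not below it. Apart from these settings' own construction (fewer peaks, another distance or denominator), the cause was not tested. The share of cores near or between V genes that point toward the J and C genes stayed at 76.5% to 87.5% throughout.

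No paired analysis was possible because the series has 1 group. Trg holds too few V genes and peaks for a share to be read closely. Depth is unknown, so a missing peak means no call in these lists, not absence of binding.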
